A study of Mus musculus with 6 samples.

Results

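The genes described here encode the catalytic core of Polycomb repressive complex 1 (PRC1) and the proteins that decide which form of it is built. They were chosen by symbol: the Ring proteins Ring1 and Rnf2, the PCGF proteins Pcgf1, Pcgf2, Bmi1 (also called PCGF4), Pcgf3, Pcgf5 and Pcgf6, and the paired adaptors Rybp and Yaf2. All 10 symbols were among the 24453 in the count files, and all 10 were among the 14700 that passed the filter on low counts. RNA came from newborn mouse back skin at postnatal day 0, taken from interfollicular cells sorted as EpCAM+, Sca1+ and high in α6-integrin, and was amplified before library construction. There were 3 libraries of Eed conditional knockout (cKO) epidermis, labelled Eed-/-, and 3 of control epidermis. The Eed protein is a core part of PRC2, the other main Polycomb complex. The sources used here do not give the promoter that drives the deletion, the deleted exons or the alleles that the control mice carry. Nothing in the labels says that the libraries of a genotype came from separate animals, so the p-values measure the spread between libraries, which may be technical in part.

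PRC1 places ubiquitin on histone H2A, and PRC2 methylates histone H3 at lysine 27. Each PRC1 complex holds a Ring protein, the ubiquitin ligase, bound to a single PCGF protein. Complexes with Pcgf2 or Bmi1 can take up a CBX protein, which reads the PRC2 mark, and are then called canonical. Complexes in which Rybp or Yaf2 takes the place of CBX are called variant PRC1 and can form around any PCGF protein. In the epidermis PRC1 is known for keeping non-epidermal genes silent, and Bmi1 for holding down the cell cycle inhibitor genes of the Ink4 locus.

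Library totals ran from 20998149 to 27447679 counts in Eed cKO and from 25481306 to 29998531 in control. The 3 basal keratinocyte and sort genes Krt5, Krt14 and Epcam were present in every library, while the Langerhans cell gene Cd207 was at 0 in the 3 Eed cKO libraries and at no more than 0.299 CPM in control, where CPM is the TMM-normalised counts-per-million value. Summed suprabasal markers (6 genes) ran from 4903 to 7771 CPM in Eed cKO and from 3120 to 4170 CPM in control, and the ranges did not overlap. Taken singly, 1 of these 6 was called higher, the groups were apart in 2, and 1 had a negative log2 fold change. Merkel cell markers (6 genes) summed to between 7.75 and 14.1 CPM in Eed cKO and to between 0.195 and 1.82 CPM in control. Myeloid and Langerhans markers (6 genes) summed to between 53.3 and 329 CPM in Eed cKO and to between 112 and 431 CPM in control, and were highest in library 1 of each genotype. Ranges overlapped for basal keratinocyte (6 genes), hair follicle (6), melanocyte (6), fibroblast (6), endothelial (5) and T cell (2) markers, and the 3 sort markers ran from 1314 to 1476 CPM in Eed cKO and from 1080 to 1262 CPM in control. The ribosomal RNA gene Rn45s took 6.78 to 7.26% of counts in Eed cKO and 2.18 to 5.24% in control. Xist, a transcript of female cells, was at 8.55 CPM in Eed cKO 2 and at 5297 CPM or more in every other library. Eed itself was at 37.0, 33.7 and 29.2 CPM in Eed cKO 1, 2 and 3, against 45.1, 41.1 and 53.1 CPM in control 1, 2 and 3 (edgeR adjusted p 0.252), a count over the whole gene that checks the deletion little.

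Of the 10 genes, 1 rose in Eed cKO epidermis, 0 fell and 9 did not pass edgeR's quasi-likelihood test at an adjusted p under 0.05. The gene that rose was Bmi1. Over all 14700 genes tested, 4.21% were called, with 3.39% higher and 0.816% lower. The median log2 fold change of the 10 genes was 0.12, and that of all genes tested was -0.01. The 10 values ran from -0.57 for Yaf2 to 0.94 for Bmi1, and 6 of them were positive. The groups did not overlap for 2 of the 10 genes, Bmi1, higher, and Pcgf2, lower. Among all genes tested the groups were apart in 20.3%, with 11.0% higher and 9.22% lower, so a share of 2 in 10 is that of the background.

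**Figure D1:**
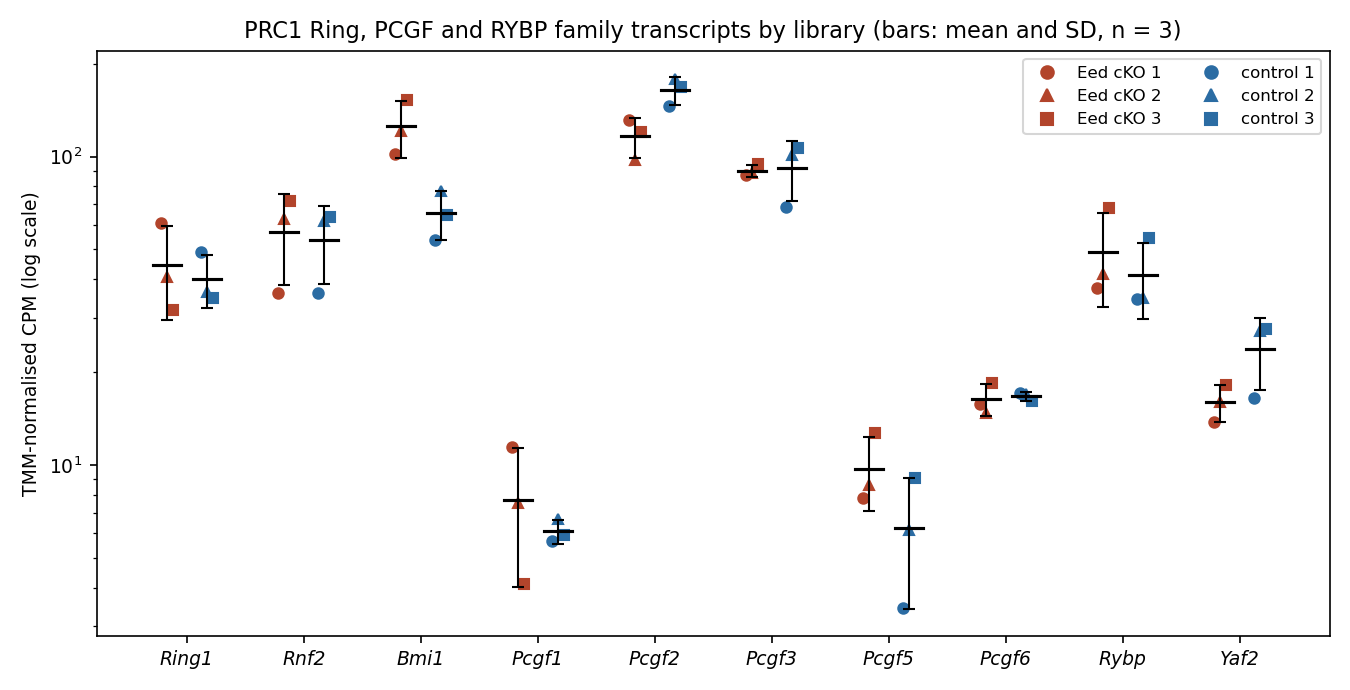
Level of each of the 10 genes in each library, as TMM-normalised CPM on a log axis, with Eed cKO libraries in red and control libraries in blue; black lines and bars are the mean and SD of 3 libraries. The Bmi1 points of Eed cKO lie above those of control, and the Pcgf2 points of Eed cKO lie below those of control.

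Bmi1 and Pcgf2 are the PCGF proteins of canonical PRC1 and occupy the same place in it. Bmi1 (chromosome 2, 18677018 to 18686629, plus strand, GRCm38) was at 102, 121 and 153 CPM in Eed cKO 1, 2 and 3, against 53.8, 77.6 and 64.7 CPM in control 1, 2 and 3. The lowest Eed cKO library was above the highest control library. The means were 125 ± 26.0 CPM in Eed cKO and 65.4 ± 11.9 CPM in control (SD, n = 3 each), which is 1.91-fold higher in Eed cKO (log2 fold change 0.94 ± 0.20 SE, 95% interval 0.51 to 1.37, edgeR adjusted p 0.0154). By p-value Bmi1 was gene 341 of the 14700 tested. The call was lost when Eed cKO 3, control 1 or control 3 was left out (edgeR adjusted p 0.0984, 0.0569 and 0.0717), with log2 fold changes of 0.77, 0.81 and 0.93. Bmi1 shares no exonic base with another annotated gene. Commd3, the next gene upstream on the same strand and looked at after the values were seen, was at 81.2, 71.3 and 73.3 CPM in Eed cKO and at 64.4, 58.5 and 59.8 CPM in control (log2 fold change 0.31, edgeR adjusted p 0.437). The libraries are bulk RNA, so a change in the share of cells that express a gene and a change in its RNA per cell cannot be told apart. The suprabasal, Merkel, sort-marker and Rn45s values given above also differed between the genotypes, and their part in the Bmi1 difference was not tested; with Rn45s left out of the counts the Bmi1 log2 fold change was 0.95.

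Pcgf2 (chromosome 11, 97688823 to 97700497, minus strand), also known as Mel18, was at 131, 97.7 and 120 CPM in Eed cKO 1, 2 and 3, against 146, 178 and 168 CPM in control 1, 2 and 3. Every Eed cKO library was below every control library. The means were 116 ± 16.998 CPM in Eed cKO and 164 ± 16.6 CPM in control (SD, n = 3 each). The log2 fold change was -0.50 ± 0.17 SE (95% interval -0.86 to -0.13), and after adjustment over all genes it did not pass (edgeR p 0.0111, adjusted p 0.143). The adjusted p for Pcgf2 stayed above the threshold in all 16 alternative fits, at 0.0664 or more.

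Set against each other within a library, where the scaling of the libraries cancels, these paralogs had a balance that lay in separate ranges in the genotypes. The library held 0.776, 1.24 and 1.27 Bmi1 counts per Pcgf2 count in Eed cKO 1, 2 and 3, against 0.369, 0.435 and 0.385 in control 1, 2 and 3. The lowest ratio in Eed cKO was above the highest in control, and Eed cKO 1 stood nearest to control. This separation follows from the separate ranges of Bmi1 and of Pcgf2. It also fixes the permutation p given below, so neither adds to the results of the single genes. The ratio was 2.71-fold higher in Eed cKO (difference of log2 ratios 1.44 ± 0.24 SE). The two-sided exact permutation test over libraries gave p 0.1, the smallest that 3 libraries against 3 can give, and 0.133 after adjustment over the 4 ratios tested. Left out in turn, no single library moved the difference outside 1.31 to 1.67.

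The RefSeq promoter windows of Bmi1 and Pcgf2 are shown because these interchangeable subunits are the genes whose groups did not overlap. Their fold changes had opposite signs, and their windows share short runs of bases. Likeness over the whole length of the windows was not measured. Each is the stretch of 250 bases before the annotated start, read 5′ to 3′ on the strand of the gene, from build GRCm38.p6. The Bmi1 window is chr2:18676768-18677017 on the plus strand, and the Pcgf2 window is chr11:97699649-97699898 on the minus strand. The Pcgf2 window lies inside the gene as GENCODE draws it, upstream of the start that RefSeq uses, and overlaps 0 bases of its exons. By GENCODE it is therefore intron, whereas the Bmi1 window lies just before the gene, so the windows are not like for like. Capitals mark AAGGAATGAGG, CACGTG and AGCCATTTTG.
Bmi1: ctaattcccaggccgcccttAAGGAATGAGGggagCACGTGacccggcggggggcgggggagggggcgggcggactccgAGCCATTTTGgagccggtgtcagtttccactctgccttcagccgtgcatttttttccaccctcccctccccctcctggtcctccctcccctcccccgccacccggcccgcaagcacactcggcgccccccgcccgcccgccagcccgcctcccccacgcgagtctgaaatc
Pcgf2: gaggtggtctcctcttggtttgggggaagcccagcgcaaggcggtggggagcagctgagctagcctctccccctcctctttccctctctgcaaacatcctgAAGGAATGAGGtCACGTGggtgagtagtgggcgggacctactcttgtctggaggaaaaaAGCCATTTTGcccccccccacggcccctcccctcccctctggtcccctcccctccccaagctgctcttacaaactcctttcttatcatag
The 3 marked stretches come in the same order in both windows, and CACGTG ends 209 bases before the start in Bmi1 and 131 bases before it in Pcgf2. CACGTG is the E-box, the sequence bound by MAX and its partners, which include the PRC1 partner MGA; the other marked stretches are runs of at least 9 bases that these 2 windows share, leaving out runs of C and T alone, so their match is no test. Searched on both strands, AAGGAATGAGG was found in 12 of 32851 promoter windows of the same length (0.0365%), AGCCATTTTG in 34 (0.103%) and CACGTG in 1978 (6.02%). All 3 were found together in 2 windows, those of Bmi1 and Pcgf2. This is no test either, since the stretches other than CACGTG were taken from these windows. The windows differ in base composition over their whole length, with 21 CpG dinucleotides and 70.4% G and C in the Bmi1 window and 5 CpG dinucleotides and 59.6% G and C in the Pcgf2 window. Windows were found for 7 of the 10 genes, and those of Ring1, Rnf2, Pcgf3, Pcgf5 and Pcgf6 held none of the 3 stretches. A match is a string of letters and says nothing of binding in these cells.

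**Figure D2:**
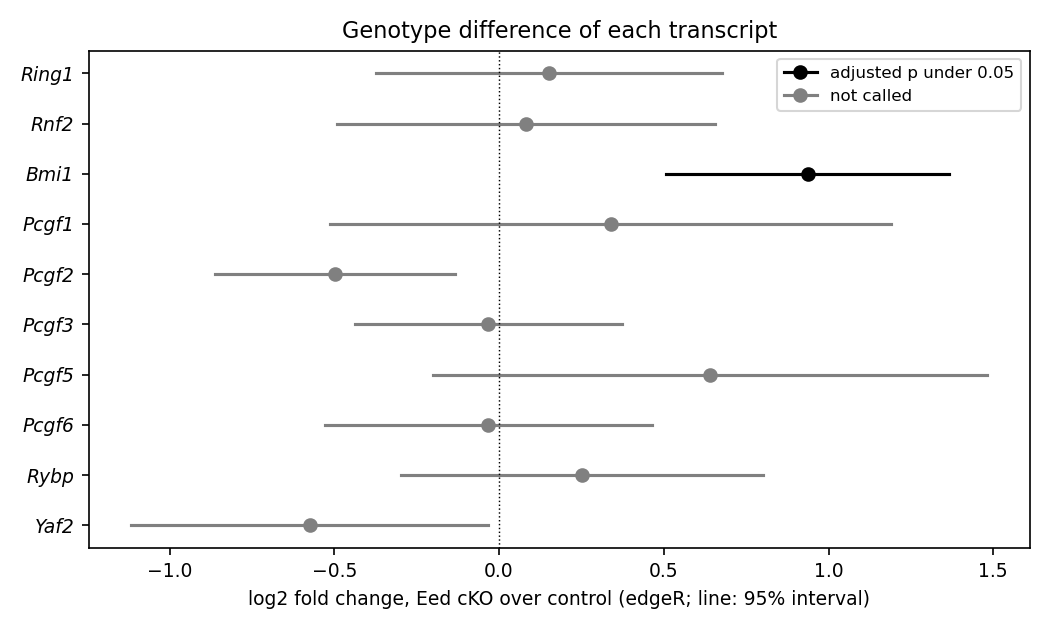
Log2 fold change of each of the 10 genes, Eed cKO over control, with its 95% interval from edgeR; black marks an adjusted p under 0.05 and grey marks genes not called. Bmi1 is the 1 gene in black, and the intervals of Pcgf2 and Yaf2 lie below 0 without adjustment over genes.

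The Ring proteins carry the ligase activity of every PRC1 form. Ring1 (chromosome 17, 34020792 to 34024680) was at 61.0, 40.6 and 31.8 CPM in Eed cKO 1, 2 and 3, against 49.0, 36.4 and 34.9 CPM in control 1, 2 and 3. Rnf2 (chromosome 1, 151458004 to 151500955), also called RING1B, was at 36.2, 62.9 and 71.8 CPM in Eed cKO 1, 2 and 3, against 36.2, 61.7 and 63.6 CPM in control 1, 2 and 3. The groups overlapped for both genes, and library 1 of each genotype was the highest for Ring1 and the lowest for Rnf2. The log2 fold change was 0.15 for Ring1 (95% interval -0.37 to 0.68, edgeR adjusted p 0.871). It was 0.08 for Rnf2 (95% interval -0.49 to 0.66, edgeR adjusted p 0.945), of whose exonic bases 158 are shared with a gene on the other strand. Ring1 had a negative log2 fold change without Eed cKO 1 (-0.15), and Rnf2 without Eed cKO 3 (-0.12) or control 1 (-0.14).

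The balance of Ring1 and Rnf2 set library 1 apart from the others in both genotypes. There were 1.68, 0.645 and 0.443 Ring1 counts per Rnf2 count in Eed cKO 1, 2 and 3, against 1.35, 0.590 and 0.549 in control 1, 2 and 3. Ring1 exceeded Rnf2 in library 1 of each genotype and in no other. The difference of log2 ratios between the genotypes was 0.05 ± 0.71 SE (two-sided exact permutation p 0.9). Library 1 also held the highest summed myeloid markers in each genotype, and the part of this in the ratio was not tested. With length taken into account, Ring1 and Rnf2 together came to 27.5 ± 0.285 RPKM (CPM per kilobase of exon) in Eed cKO and 25.4 ± 1.33 RPKM in control (SD, n = 3 each). The sums were 27.6, 27.8 and 27.2 RPKM in Eed cKO 1, 2 and 3, against 23.9, 26.2 and 26.2 RPKM in control 1, 2 and 3. These ranges did not overlap, as was so for 20.3% of single genes tested, and the difference was not tested.

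**Figure D3:**
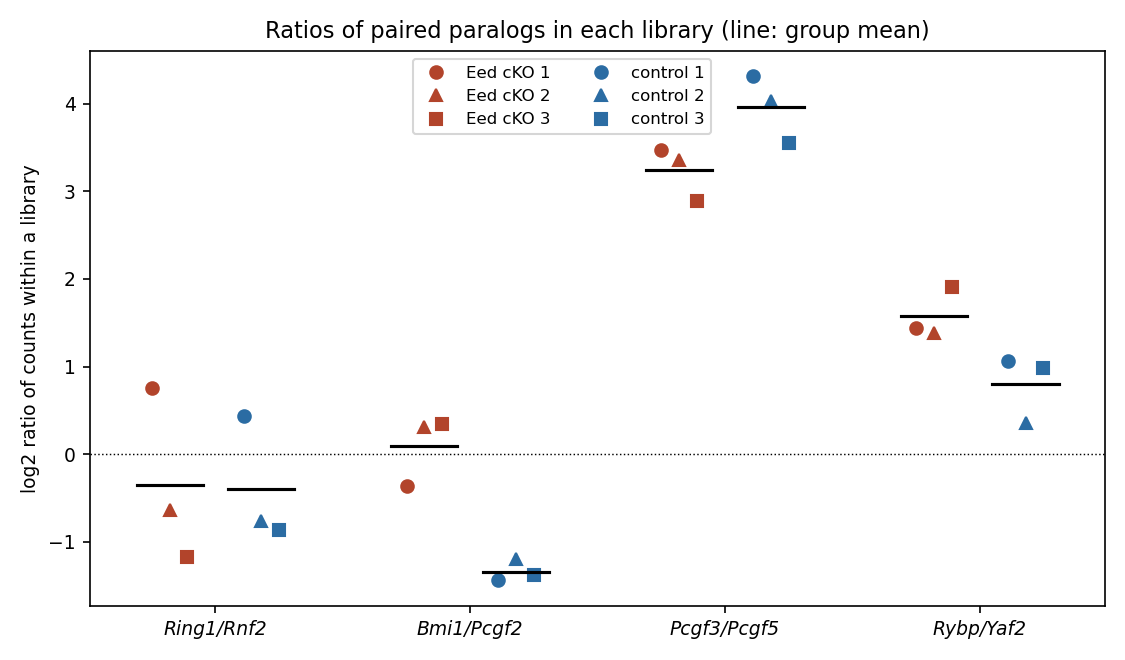
Log2 ratio of the counts of 2 paralogs within each library, for 4 pairs, with Eed cKO in red left of control in blue and the group mean as a line; circles, triangles and squares are libraries 1, 2 and 3. The groups are apart for Bmi1/Pcgf2, Pcgf3/Pcgf5 and Rybp/Yaf2, and the share of other gene pairs that are apart was not computed. For Ring1/Rnf2 the circles of both genotypes lie above 0 and all other points below it.

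The remaining PCGF proteins build variant complexes: Pcgf1 with the CpG island reader Kdm2b and with Bcor, Pcgf3 and Pcgf5 with Auts2 family proteins and casein kinase, and Pcgf6 with Mga, Max, L3mbtl2 and E2f6. Pcgf3 (chromosome 5, 108461232 to 108506976) was at 87.0, 88.4 and 94.5 CPM in Eed cKO 1, 2 and 3, against 68.6, 101 and 107 CPM in control 1, 2 and 3. Pcgf5 (chromosome 19, 36348309 to 36460970) was at 7.83, 8.63 and 12.7 CPM in Eed cKO 1, 2 and 3, against 3.44, 6.17 and 9.10 CPM in control 1, 2 and 3. The Pcgf3 values of Eed cKO lay inside the range of control, and Pcgf5 was highest in Eed cKO 3 and lowest in control 1 with overlapping groups. The log2 fold change was -0.03 for Pcgf3 (95% interval -0.44 to 0.37, edgeR adjusted p 0.971) and 0.64 for Pcgf5 (95% interval -0.20 to 1.48, edgeR adjusted p 0.507). The Pcgf5 value was 0.35 without control 1, 0.40 without Eed cKO 3 and 1.01 without control 3, and it was called in none of these fits. Of the Pcgf5 exonic bases 60 are shared with a gene on the other strand.

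Pcgf3 and Pcgf5 are the closest paralogs among the variant PCGF proteins. There were 11.1, 10.2 and 7.42 Pcgf3 counts per Pcgf5 count in Eed cKO 1, 2 and 3, against 19.9, 16.4 and 11.7 in control 1, 2 and 3. The highest ratio in Eed cKO was below the lowest in control, by a narrow margin. The ratio was lower in Eed cKO, with a difference of log2 ratios of -0.73 ± 0.29 SE (two-sided exact permutation p 0.1, adjusted over the 4 ratios 0.133). As for Bmi1/Pcgf2, the separate ranges fix this permutation p. The groups overlapped for each gene alone, and the share of other gene pairs that are apart was not computed. Pcgf5 had 92 to 263 counts in a library, so this ratio rests on low counts.

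Pcgf1 (chromosome 6, 83077869 to 83080855) was at 11.4, 7.51 and 4.11 CPM in Eed cKO 1, 2 and 3, against 5.65, 6.68 and 5.94 CPM in control 1, 2 and 3. The Eed cKO libraries spread more widely than those of control and lay on both sides of them. The log2 fold change of Pcgf1 was 0.34 (95% interval -0.51 to 1.19, edgeR adjusted p 0.793), and its sign turned negative without Eed cKO 1. Pcgf6 (chromosome 19, 47033617 to 47050906) was at 15.8, 14.7 and 18.5 CPM in Eed cKO 1, 2 and 3, against 17.1, 16.9 and 16.1 CPM in control 1, 2 and 3. All 6 values of Pcgf6 lay between 14.7 and 18.5 CPM, with a log2 fold change of -0.03 (95% interval -0.53 to 0.46, edgeR adjusted p 0.977).

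Rybp and Yaf2 bind the Ring proteins in variant PRC1, where Rybp also recognises ubiquitinated H2A. Rybp (chromosome 6, 100228565 to 100287485) was at 37.4, 41.7 and 68.1 CPM in Eed cKO 1, 2 and 3, against 34.4, 34.9 and 54.3 CPM in control 1, 2 and 3. In both genotypes library 3 was the highest, and the groups overlapped. The log2 fold change of Rybp was 0.25 (95% interval -0.30 to 0.80, edgeR adjusted p 0.752); a pseudogene of Rybp is annotated, so its reads may be split. Yaf2 (chromosome 15, 93284278 to 93336935) was at 13.8, 16.0 and 18.1 CPM in Eed cKO 1, 2 and 3, against 16.5, 27.2 and 27.5 CPM in control 1, 2 and 3. Control 1 lay within the range of Eed cKO, and controls 2 and 3 lay above it. The log2 fold change of Yaf2 was -0.57 ± 0.25 SE (95% interval -1.12 to -0.03), and it did not pass (edgeR p 0.0389, adjusted p 0.295). There were 2.71, 2.61 and 3.76 Rybp counts per Yaf2 count in Eed cKO 1, 2 and 3, against 2.09, 1.28 and 1.97 in control 1, 2 and 3. The groups did not overlap in this ratio, but they overlapped for each gene alone. The ratio was 1.72-fold higher in Eed cKO (difference of log2 ratios 0.78 ± 0.28 SE, two-sided exact permutation p 0.1, adjusted over the 4 ratios 0.133). Here too the separate ranges fix the permutation p. Of single genes tested 20.3% were apart, and the share of other gene pairs that are apart was not computed.

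Levels of different genes were compared as RPKM, the TMM-scaled CPM divided by the kilobases of merged exons. Pcgf2 was the highest of the 10 in both genotypes, at 33.0 ± 4.82 RPKM in Eed cKO and 46.6 ± 4.71 RPKM in control (SD, n = 3 each). Bmi1 had the second highest mean, at 31.5 ± 6.54 RPKM in Eed cKO and 16.5 ± 3.001 RPKM in control, but in control its libraries overlapped those of Rnf2, Ring1 and Yaf2. In Eed cKO the Pcgf2 and Bmi1 libraries overlapped, with Bmi1 above Pcgf2 in Eed cKO 2 and 3, whereas in control the lowest Pcgf2 library (41.4 RPKM) was above the highest Bmi1 library (19.5 RPKM). Rnf2, Ring1, Rybp, Pcgf3 and Yaf2 followed in Eed cKO, from 13.8 down to 8.52 RPKM, and Rnf2, Yaf2, Ring1, Pcgf3 and Rybp in control, from 13.04 down to 8.69 RPKM. Neighbours among these 5 overlapped in both genotypes, so their order is not resolved. Pcgf1 (4.66 RPKM in Eed cKO and 3.69 RPKM in control), Pcgf6 (3.25 RPKM in Eed cKO and 3.32 RPKM in control) and Pcgf5 (0.771 RPKM in Eed cKO and 0.494 RPKM in control) were the lowest in both.

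As shares of the summed RPKM of the 6 PCGF genes, Bmi1 made up 31.0, 40.3 and 43.0% in Eed cKO 1, 2 and 3, against 19.6, 22.0 and 19.7% in control 1, 2 and 3. Pcgf2 made up 45.0, 36.7 and 38.0% in Eed cKO 1, 2 and 3, against 59.8, 57.1 and 57.7% in control 1, 2 and 3. In neither gene did the shares of the genotypes overlap. These shares largely restate the separate ranges of Bmi1 and Pcgf2 given above and are no further result. The sum of Bmi1 and Pcgf2 was 62.7, 58.1 and 72.6 RPKM in Eed cKO 1, 2 and 3, against 54.9, 70.1 and 64.0 RPKM in control 1, 2 and 3. These sums overlapped, with means of 64.5 ± 7.404 RPKM in Eed cKO and 63.0 ± 7.65 RPKM in control (SD, n = 3 each). The sum over all 6 PCGF genes was 82.6 ± 7.08 RPKM in Eed cKO and 80.2 ± 9.95 RPKM in control. Among the variant PCGF genes, Pcgf3 held 11.4 ± 0.707% of the pool in Eed cKO and 11.9 ± 1.56% in control, and Pcgf5 no more than 1.12% in any library.

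**Figure D4:**
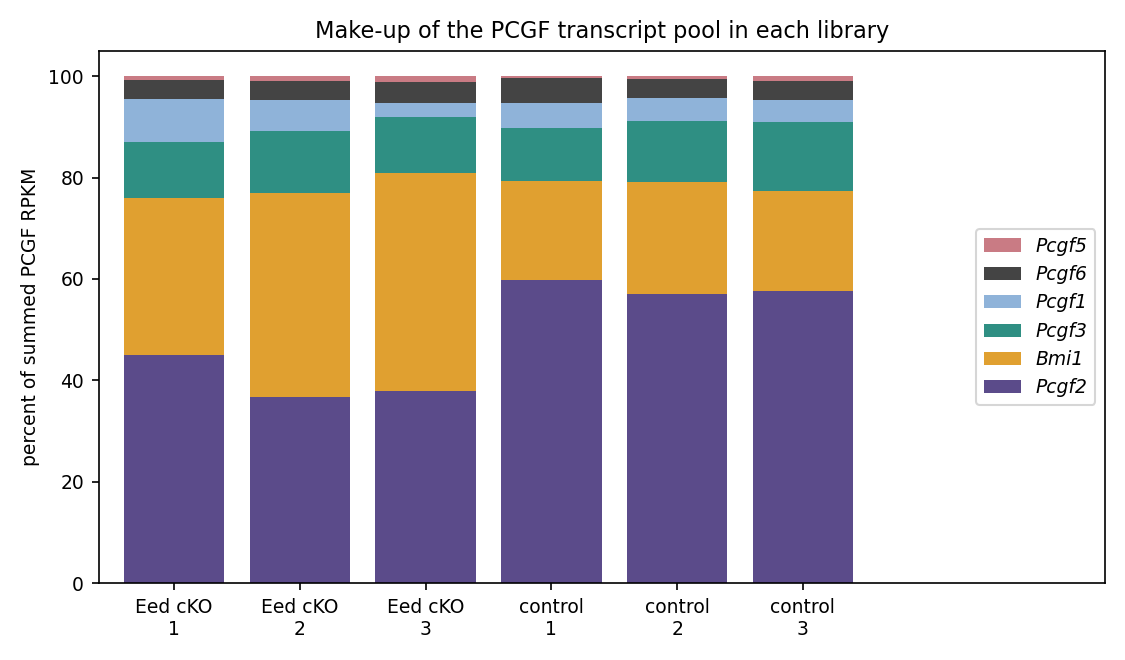
Share of each PCGF gene in the summed RPKM of the 6 PCGF genes, one bar per library, with Eed cKO left of control. The Bmi1 part spans 31.0 to 43.0% in Eed cKO and 19.6 to 22.0% in control, and the Pcgf2 part 36.7 to 45.0% in Eed cKO and 57.1 to 59.8% in control.

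The partners of these proteins were followed as lists, chosen with earlier results of these data known, and are to be read against the 3.39% of all genes tested that were called higher and the 0.816% called lower. Of 10 tested canonical PRC1 partner genes (CBX, PHC and SCM family) 0 rose and 0 fell, with a median log2 fold change of -0.20. Of 21 variant PRC1 partner genes 0 rose and 0 fell, with a median of -0.08 and values from -0.41 to 0.31. Of 8 genes for H2A deubiquitinases and their cofactors, which remove the PRC1 mark, 0 rose and 0 fell, with a median of -0.08. Of 12 PRC2 genes 0 rose and 1 fell. This was Phf19, which helps bring PRC2 to chromatin, at 10.5, 10.9 and 7.12 CPM in Eed cKO, against 19.3, 22.8 and 30.4 CPM in control (edgeR adjusted p 0.0110 at a log2 fold change of -1.34). Leaving out Eed cKO 3 or control 3 ended that call (edgeR adjusted p 0.0617 and 0.0814). Ezh2, the methyltransferase, was at 88.6, 142 and 111 CPM in Eed cKO, against 127, 219 and 203 CPM in control, and was not called (log2 fold change -0.69, edgeR adjusted p 0.120), but was called without control 1 (edgeR adjusted p 0.0269). Over the canonical, variant and deubiquitinase lists together, 4 of 39 genes had an unadjusted edgeR p under 0.05, against 14.9% of all genes tested, and DESeq2 called 0 of them and limma-voom 0 at an adjusted p under 0.05.

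**Figure D5:**
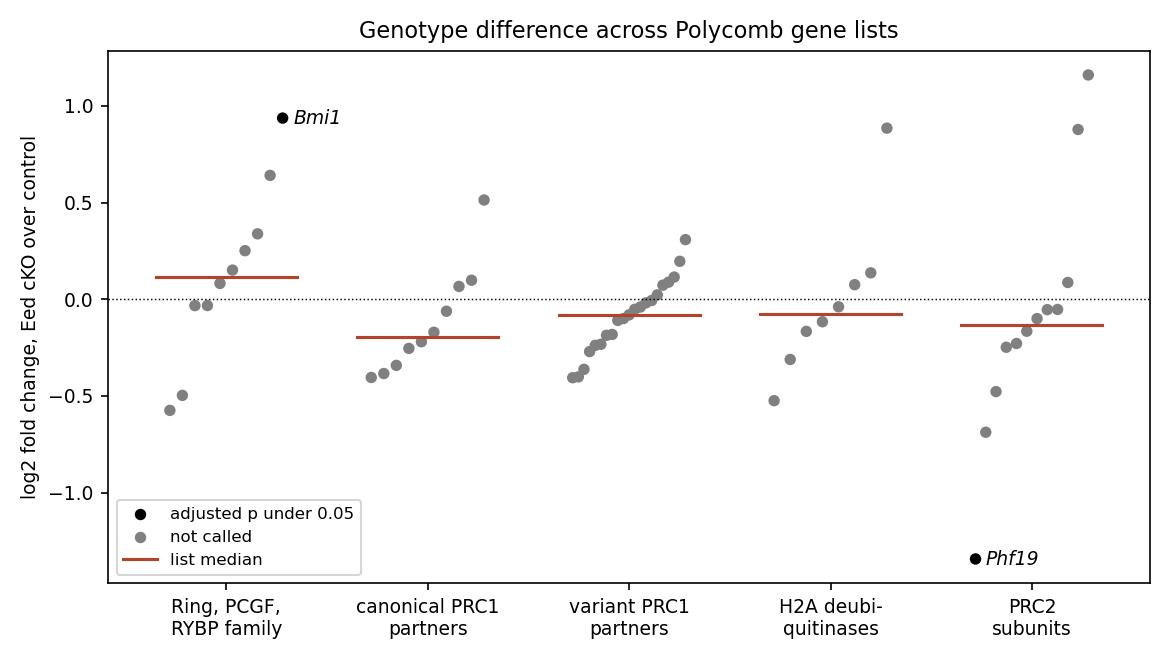
Log2 fold change, Eed cKO over control, of each tested gene in 5 Polycomb lists; each point is a gene, red lines are list medians, black points have an adjusted p under 0.05 and grey points were not called. Bmi1 (0.94) and Phf19 (-1.34) are the 2 black points.

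Both Ink4 genes, which Bmi1-containing PRC1 is known to repress, were called higher in Eed cKO. Cdkn2b, encoding p15, was at 7.43, 7.26 and 5.42 CPM in Eed cKO 1, 2 and 3, against 0.337, 0.863 and 0.508 CPM in control 1, 2 and 3 (edgeR adjusted p 0.00167). Cdkn2a, encoding p16 and p19ARF, was at 0.801, 2.69 and 1.11 CPM in Eed cKO 1, 2 and 3 and had no count in any control library. In counts pooled within a group it was at least 42.8-fold higher in Eed cKO, against a floor of 3 counts over the control group (edgeR adjusted p 0.00883). The Cdkn2a call was lost without Eed cKO 2 (edgeR adjusted p 0.0738).

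The genes whose profile over the 6 libraries was most like that of Bmi1 were Irx1, Trim2 and Abca12. They had the smallest root-mean-square difference in centred log2 CPM, of 0.136, 0.139 and 0.142, among 10273 genes with a mean of at least 5 CPM. Predicted genes (Gm and Rik symbols), microRNA genes and small nucleolar RNA genes had been left out of these by symbol. Irx1, an Iroquois homeobox factor, was at 54.9, 74.2 and 70.9 CPM in Eed cKO 1, 2 and 3, against 28.8, 39.4 and 38.6 CPM in control 1, 2 and 3. Trim2, a ubiquitin ligase gene, was at 99.6, 133 and 130 CPM in Eed cKO, against 49.4, 65.9 and 66.8 CPM in control. Abca12, a lipid transporter of the epidermal barrier, was at 28.4, 37.6 and 38.1 CPM in Eed cKO, against 13.3, 22.0 and 15.0 CPM in control. In all 3 the lowest Eed cKO library was above the highest control library, which follows from choosing them for their likeness to Bmi1. Of the other 9 genes described here, Pcgf5 was nearest to Bmi1 at a difference of 0.357, and Pcgf2 was the farthest at 0.757.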

How the data were processed

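RNA was measured in 6 libraries, 3 Eed cKO and 3 control. The authors deposited raw counts for each gene symbol, with no normalization, as the file headers and whole-number values show. The build is mm10, per the submitters' processing notes, which list HTSeq 0.6.1, TopHat2 2.0.13, DESeq2 1.6.3 and Cufflinks 2.2.1 without a role. The sources used here give no annotation or strand setting, so overlapping genes have uncertain counts.

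The test was edgeR 4.0.16 in R 4.3.3: filterByExpr, TMM, genotype as the only term, quasi-likelihood F-test, Benjamini-Hochberg adjustment over 14700 genes, threshold 0.05. Standard errors and 95% intervals were derived from the F statistic. RPKM used merged exons of GENCODE M21 (GRCm38, the assembly that mm10 names). Paralog ratios used raw counts and two-sided exact permutation in scipy 1.17.1. Floors cover counting error only, since reads of amplified RNA are not independent molecules. Alternatives used DESeq2 1.42.0 and limma 3.58.1. Bmi1's likeness used log2 CPM with prior count 2. The edgeR step was first tested on simulated data with known changes.

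The members and lists were chosen with earlier results of these data known. Named genes were all members, called genes of the other Polycomb lists, Eed, Ezh2, Cdkn2a, Cdkn2b and the 3 genes most like Bmi1. Krt5, Krt14, Epcam, Cd207, Xist and Rn45s are named as checks of the libraries, and Commd3 was chosen after its values were seen.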

Additional observations from a re-analysis of the deposited data

How the results depend on the processing

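Over the 16 alternative fits of each of the 10 genes, 147 of 160 results kept their direction and their side of the threshold, 3 lost a call and 10 changed sign. The lost calls are all of Bmi1, which was called in 13 of 16 fits with log2 fold changes from 0.77 to 1.09 and edgeR, DESeq2 or limma-voom adjusted p from 0.000331 to 0.0984; members called higher numbered 0 to 1 and called lower 0 when 1 library was left out. The sign changes were of genes not called. With 1 library left out the log2 fold change ran from -0.15 to 0.34 for Ring1, -0.14 to 0.32 for Rnf2, -0.0663 to 0.637 for Pcgf1, -0.209 to 0.0819 for Pcgf3, -0.131 to 0.0477 for Pcgf6 and -0.0594 to 0.498 for Rybp. Without both libraries numbered 1 it was -0.11 for Pcgf1 and 0.010 for Pcgf6; the cause was not tested. Pcgf2, Pcgf5 and Yaf2 kept their sign in all fits run.

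Of all genes, 499 were called higher and 120 lower. With 1 library left out 302 to 456 were called higher, with 302 without Eed cKO 3 and 323 without control 3. The lower calls numbered 35 to 118, with 51 without Eed cKO 2, 44 without Eed cKO 3, 59 without control 2 and 35 without control 3. DESeq2 called 811 higher and 273 lower, and no filter on low counts gave 257 lower.

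The labels do not say whether the replicate numbers pair the libraries, and the values do not settle it. Over 14700 genes, deviations from the group means correlated at 0.23, 0.108 and -0.00138 for numbers 1, 2 and 3. Between libraries of different numbers the correlations ran from -0.185 to 0.0994. The replicate block gave 675 higher and 269 lower calls, called Ezh2 (edgeR adjusted p 0.0123), and changed no call among the 10 genes (Bmi1 edgeR adjusted p 0.00175). Ezh2 was also called with no filter on low counts (edgeR adjusted p 0.0133) and without both libraries numbered 1 (0.0428).

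The log2 difference ran from 1.31 to 1.67 for Bmi1/Pcgf2, -0.93 to -0.55 for Pcgf3/Pcgf5, 0.56 to 0.91 for Rybp/Yaf2 and -0.51 to 0.46 for Ring1/Rnf2 with 1 library left out, where exact permutation cannot give a p under 0.2. Without both libraries numbered 1, chosen after seeing the data, it was 1.62, -0.67 and 0.98, and -0.0900 for Ring1/Rnf2. The sign of Ring1/Rnf2 is therefore not settled. Per length of the longest transcript, 4 of 20 ranks moved, all among the 5 middle genes, and the sum of Bmi1 and Pcgf2, also recomputed after seeing the data, was 81.7 ± 9.03 RPKM in Eed cKO and 84.3 ± 9.93 RPKM in control (SD, n = 3 each). Pcgf1 and Pcgf5, at 85 to 314 counts a library, have the widest intervals.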
